A study of Rattus norvegicus with 18 samples.

Results

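Cyp2c23 and Cyp4a2 encode cytochrome P450 enzymes of arachidonic acid metabolism, and they were followed by gene symbol through rat kidney RNA sequencing libraries. They are 2 of the 29 features of the deposited table analysed here, and 2 of its 16 named nuclear genes. The kidneys came from diabetic rats given water (DM) or plantain flour at a low (LP, 1 g per kg body weight), medium (MP, 2 g) or high dose (HP, 4 g), and from healthy rats given a high dose of the flour (NH) or water (NC). The g per kg dose of NH is not stated by its own label. Each of the 6 groups had 3 libraries, and all 18 kidney samples were labelled male and 23 weeks old. The sources used here give neither the strain nor the way diabetes was induced. Whether each library stands for its own rat is not said by the labels, and the p-values describe the spread among these libraries alone, which may be technical.

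Arachidonic acid released from membranes can be oxidised by P450 enzymes along different routes. Epoxygenases of the CYP2C family make epoxyeicosatrienoic acids, which relax renal arterioles and restrain sodium reabsorption in the tubule. Omega-hydroxylases of the CYP4A family make 20-hydroxyeicosatetraenoic acid (20-HETE), which constricts preglomerular arterioles and also acts on tubular sodium transport. Cyp2c23 is the main renal epoxygenase gene of the rat, and Cyp4a2 is one of the rat genes for renal omega-hydroxylases. Both are transcribed strongly in the proximal tubule.

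In the deposited annotation, Cyp2c23 (ENSRNOG00000013291) is a protein-coding gene on the minus strand of chromosome 1, from 263778516 to 263803150, with a listed length of 1924 bases. Cyp4a2 (ENSRNOG00000030154) lies on the minus strand of chromosome 5, from 134196912 to 134207863, with a listed length of 2176 bases. The sources used here do not name the build of these positions. The values are whole-number counts per gene, so levels of the genes were compared as counts per kb of listed length. RefSeq (GRCr8) lists 8 Cyp4a genes on chromosome 5, of which 5 are protein-coding and 3 are pseudogenes, including Cyp4a3 and copies named after Cyp4a2. How the authors' counting treated reads shared by such copies is not known, so a Cyp4a2 count may hold reads of its near copies or lack some of its own.

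The stretches before the gene starts are shown because they set Cyp2c23 apart from Cyp4a2 and show how close a copy of Cyp4a2 can be. Each is the 250 bases before the RefSeq start on the minus strand of GRCr8, written 5′ to 3′, at chr1:252863068-252863317 for Cyp2c23, chr5:134170909-134171158 for Cyp4a2 and chr5:134352237-134352486 for Cyp4a3. Capitals mark matches to AGGTCA, a core element of nuclear receptor sites, and to CAAAGT, an element found in sites of HNF4 type, searched on both strands (CAAAGT reads ACTTTG on the other strand).
Cyp2c23: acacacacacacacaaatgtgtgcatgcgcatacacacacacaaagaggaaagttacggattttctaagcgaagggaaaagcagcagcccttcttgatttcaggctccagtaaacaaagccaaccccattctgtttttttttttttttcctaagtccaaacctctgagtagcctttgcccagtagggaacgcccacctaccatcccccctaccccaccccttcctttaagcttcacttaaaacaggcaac
Cyp4a2: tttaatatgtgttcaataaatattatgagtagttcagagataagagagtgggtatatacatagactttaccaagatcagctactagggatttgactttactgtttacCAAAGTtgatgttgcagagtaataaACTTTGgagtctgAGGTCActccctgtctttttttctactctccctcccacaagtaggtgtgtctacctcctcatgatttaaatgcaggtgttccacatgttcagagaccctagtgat
Cyp4a3: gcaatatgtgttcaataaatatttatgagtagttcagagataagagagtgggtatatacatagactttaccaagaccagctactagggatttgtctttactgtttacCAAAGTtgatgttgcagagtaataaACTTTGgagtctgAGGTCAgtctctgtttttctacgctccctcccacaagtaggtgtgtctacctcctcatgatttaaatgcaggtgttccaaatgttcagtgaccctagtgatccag

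The Cyp4a2 stretch held AGGTCA 1 time, from 105 to 100 bases before the start. It held CAAAGT 2 times, from 143 to 138 bases before the start and, on the other strand, from 118 to 113. Cyp4a3 had the same matches at the same distances, while Cyp2c23 had 0 of either. Over all 33469 RefSeq windows of this length, AGGTCA was present in 14.1%, CAAAGT in 12.9% and CAAAGT at least 2 times in 0.917%. The DR1 element, a direct repeat of AGGTCA with a single spacer base, was in 0.0508% of all windows and in 0 of these 3. In a global alignment Cyp4a2 and Cyp4a3 were identical at 236 of 255 columns (92.5%), against 114 of 270 (42.2%) for Cyp2c23 and Cyp4a2. No match or its absence bears on whether a factor acts on these genes.

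Library depth is not known, since the table holds 29 features in descending order of their summed counts. Cyp4a2 is number 11 in that order and Cyp2c23 is the last, number 29. If the table was limited by this sum, genes high in the 12 diabetic libraries were favoured over genes high in the 6 healthy ones, and the bearing of this on the results was not tested. Mitochondrial genes took between 77.1 and 88.7% of the named counts in diabetic libraries and between 92.7 and 95.5% in healthy ones, so the fold change of any nuclear gene depends on how libraries are scaled. For that reason each gene is given under 4 scalings: trimmed mean of M-values (TMM), median of ratios, the geometric mean of the 16 nuclear genes, and unscaled counts. The ratio of Cyp2c23 to Cyp4a2 within a library needs no scaling.

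Of 23 genes on a list of arachidonic acid enzymes, Cyp2c23 and Cyp4a2 were the 2 in the table, and the other P450s, the epoxide hydrolases, cyclooxygenases and lipoxygenases were not analysed here. Of 9 proximal tubule markers 6 were present (Slc34a1, Miox, Pck1, Hao2, Slc3a1 and Gpx3), while 0 of 2 markers were present for each of the thick ascending limb, distal tubule, collecting duct, podocyte, endothelium, leukocyte and fibroblast. In whole kidney, a change in the number of cells that make a transcript and a change in the transcript per cell cannot be told apart.

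Levels are first given as counts per kb without scaling for depth, and they are of mRNA only, since enzyme activity and eicosanoids were not measured. Cyp4a2 was the more abundant gene in all 18 libraries, by 1.91 to 4.23 times in counts per kb. Cyp2c23 had 15584, 14482 and 15763 counts per kb in DM replicates 1 to 3. In LP the Cyp2c23 values were 19933, 24064 and 23693 counts per kb. In MP they were 27445, 26390 and 22925. All 6 libraries of the lower flour doses lay above all 3 DM libraries, a separation of unscaled counts that 27.6% of features had in LP and 55.2% in MP.

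HP libraries had 18312, 14846 and 14511 Cyp2c23 counts per kb, which overlapped DM. In healthy kidneys the values were 6706, 5997 and 6801 counts per kb in NH and 7501, 7728 and 8288 in NC. Every diabetic library was above every healthy one, and for DM against NC 37.9% of features had no overlap in that direction. The share of features that separated all diabetic from all healthy libraries was not counted. For Cyp2c23 the lowest diabetic value was 14482 against a highest healthy value of 8288 counts per kb. Ordered by mean, the groups ran MP (25587 ± 2365), LP (22564 ± 2285), HP (15890 ± 2104), DM (15276 ± 694), NC (7839 ± 405) and NH (6501 ± 439; SD, n = 3 each). The neighbours MP and LP, and HP and DM, overlapped, and the other neighbours did not in these unscaled counts. The shares of features that separated LP from HP, or NC from NH, in this way are not reported here. These separations are therefore not read as particular to Cyp2c23. Scaled on the 14 nuclear genes without the P450s, Cyp2c23 overlapped between NH and NC.

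Cyp4a2 varied less. It had 41084, 37380 and 39694 counts per kb in DM, then 44162, 46930 and 48405 in LP, and 52412, 56928 and 44380 in MP. In HP the values were 39763, 41991 and 41107, which overlapped DM. Across the 18 libraries the highest Cyp4a2 count was 2.42 times the lowest, against 4.58 times for Cyp2c23.

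Healthy kidneys had 23541, 23671 and 28773 Cyp4a2 counts per kb in NH and 27351, 26364 and 29822 in NC. These groups overlapped, and both lay below every diabetic library in unscaled counts. For DM against NC, 37.9% of features had such a separation, and the share for all diabetic against all healthy libraries was not counted. Scaled on the 14 nuclear genes without the P450s, Cyp4a2 overlapped between HP and NH. By mean the order was MP (51240 ± 6355), LP (46499 ± 2154), HP (40954 ± 1122), DM (39386 ± 1871), NC (27846 ± 1781) and NH (25329 ± 2984; SD, n = 3 each), and the neighbours MP and LP, HP and DM, and NC and NH overlapped. As a share of the summed counts of the 16 nuclear genes, Cyp4a2 stayed between 9.28 and 12.3% in all libraries, with its highest share in NH (11.8% ± 0.876) and its lowest in LP (9.43% ± 0.151; SD, n = 3 each). Cyp2c23 ranged from 2.38 to 4.60% of that sum, with means between 4.33% ± 0.296 in MP and 2.46% ± 0.0729 in NC.

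**Figure D1:**
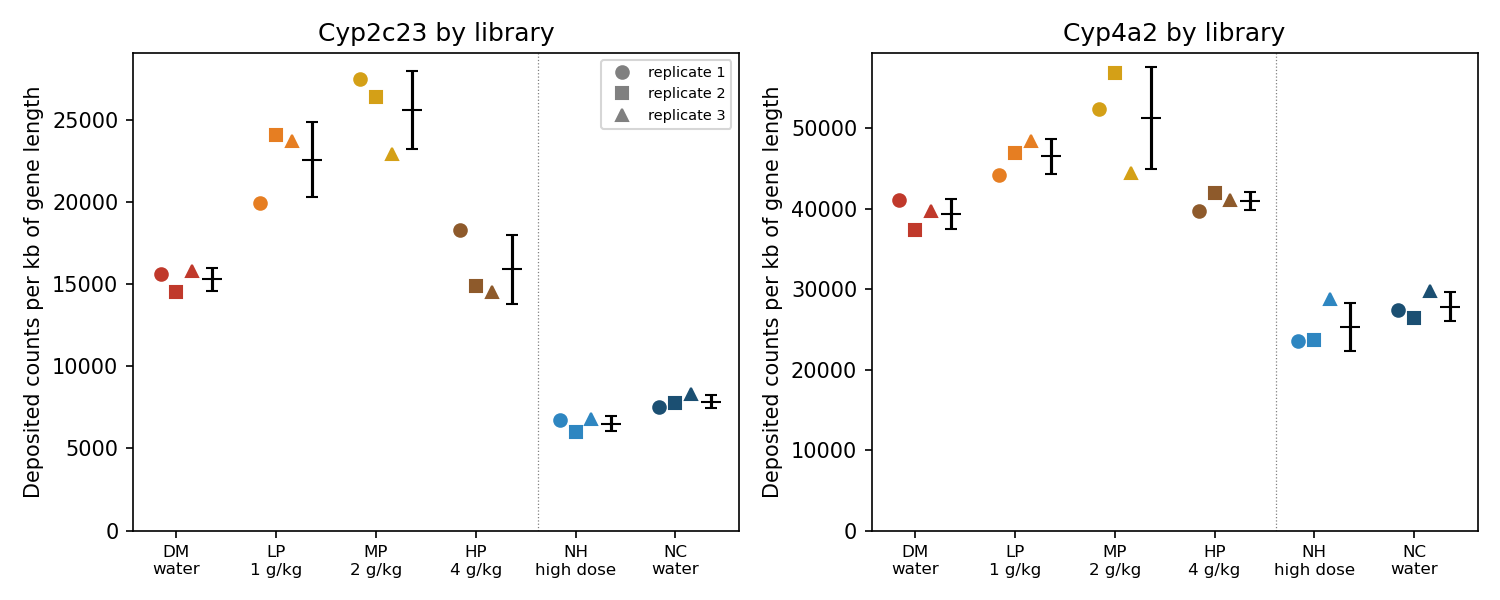
Deposited counts per kb of gene length for Cyp2c23 (left) and Cyp4a2 (right) in each library, not scaled for depth; symbols are replicates, and the black bar is the mean with SD (n = 3). Cyp2c23 peaks in MP (22925 to 27445) and is at most 8288 in every healthy library, while Cyp4a2 spans 23541 to 56928.

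In untreated diabetic kidneys the epoxygenase gene rose relative to the omega-hydroxylase gene. The comparison of DM with NC asks what diabetes alone went with. The ratio of Cyp2c23 to Cyp4a2 in counts per kb was 0.379, 0.387 and 0.397 in DM, against 0.274, 0.293 and 0.278 in NC. All DM libraries were above all NC libraries, which held for 17.9% of features counted per Cyp4a2 count, and the ratio was 1.38 times higher (log2 0.46, SE 0.10, 95% interval 0.24 to 0.68). This passed in edgeR's quasi-likelihood test with the Cyp4a2 count of each library as its size (adjusted p = 0.000475 over the 28 other features). Relative to Cyp4a2, 17.9% of features were called higher in DM. The exact permutation p was 0.1, the smallest that 3 against 3 libraries allow.

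Taken alone, Cyp2c23 was higher in DM than in NC under all 4 scalings, a call that 17.2% of the 29 features shared. Cyp2c23 is the last feature in the order of summed counts, and most libraries are diabetic. If the features were limited by that sum, Cyp2c23 could be among them through its higher diabetic counts, and the shares of features called are from the same limited set. This applies to every comparison of diabetic with healthy libraries, also of the ratio. Since Cyp2c23 counts were highest in MP and LP, it applies as well to comparisons of these doses with DM or HP. The bearing of this on the results was not tested. Its log2 fold change was 0.52 with the nuclear genes as scale, 0.96 unscaled, 1.49 with median of ratios and 1.89 with TMM (edgeR, adjusted p at most 0.000282). Cyp4a2 rose under 3 of them, by log2 1.43 with TMM (SE 0.13), 1.02 with median of ratios and 0.50 unscaled. Features called higher made up 48.3% under TMM, 44.8% with median of ratios and 34.5% unscaled. Against the nuclear genes it had a log2 value of 0.06 (95% interval -0.07 to 0.18, adjusted p = 0.378 by edgeR), and this did not pass.

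Over all 29 features, DM over NC had a median log2 fold change of 0.10 under TMM, -0.31 with median of ratios, -0.84 unscaled and -1.28 with nuclear scaling. Relative to that median, Cyp2c23 stood 1.80 higher and Cyp4a2 between 1.33 and 1.34 higher in log2 under each of the 4 scalings. In the order of fold changes, Cyp2c23 was number 4 of 29 and Cyp4a2 number 7, whichever scaling was used. A scaling shifts the log2 fold changes of all features by nearly the same amount. The distances from the median and the order therefore could not differ between the scalings, and their sameness is no separate support.

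At the lower flour doses the ratio was above its level in untreated diabetes. These comparisons ask what each dose changed in diabetic kidneys, and all share the DM libraries. In counts per kb the ratio was 0.451, 0.513 and 0.489 in LP and 0.524, 0.464 and 0.517 in MP, against 0.379 to 0.397 in DM. No LP or MP library overlapped DM, which held for 14.3% of features per Cyp4a2 count at either dose. The ratio was 1.25 times higher in LP than in DM (log2 0.32, SE 0.10, edgeR with Cyp4a2 as library size, adjusted p = 0.0147) and 1.29 times higher in MP (log2 0.37, SE 0.10, adjusted p = 0.00495).

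Relative to Cyp4a2, 14.3% of features were called higher in LP and 14.3% in MP. The exact permutation p was 0.1 for each, the smallest possible. The LP call was lost without LP replicate 2 (log2 0.28, edgeR, adjusted p = 0.0639) or without DM replicate 1 (log2 0.30, adjusted p = 0.0525). MP and LP overlapped, with a log2 difference of 0.05 (95% interval -0.17 to 0.26, edgeR, adjusted p = 0.661).

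Cyp2c23 itself rose over DM under all 4 scalings at both doses, by 1.31 to 1.72 times in LP and 1.31 to 1.68 times in MP. The calls held when any 1 library was left out, and 13.8% of features were called higher under all 4 scalings in each comparison. If the features were limited by summed counts, Cyp2c23 could be among them through its high LP and MP counts, which was not tested. Cyp4a2 did not pass under TMM, at log2 0.32 in LP (SE 0.13, edgeR, adjusted p = 0.0682) and 0.03 in MP (SE 0.13, adjusted p = 0.905). It passed with median of ratios in LP (log2 0.46, edgeR, adjusted p = 0.00104; 37.9% of features called higher) and unscaled in MP (log2 0.38, adjusted p = 0.0109; 37.9%), so its call at these doses depends on the scaling.

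**Figure D2:**
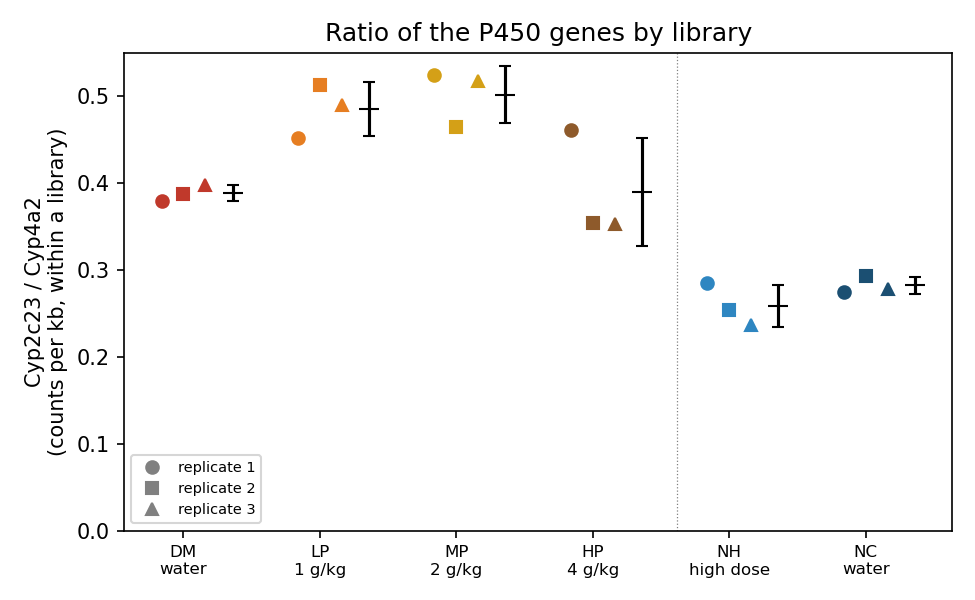
Ratio of Cyp2c23 to Cyp4a2 in counts per kb within each library, which does not depend on scaling; symbols are replicates, and the black bar is the mean with SD (n = 3). DM lies between 0.379 and 0.397, LP and MP between 0.451 and 0.524, and the healthy groups between 0.236 and 0.293, while HP replicate 1 (0.461) stands above the other HP libraries (both 0.353 to 0.354).

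At the high dose the ratio spread to both sides of the DM values. It was 0.461, 0.354 and 0.353 in HP, against 0.379, 0.387 and 0.397 in DM, so that 1 HP library was above and the other two were below every DM library. The log2 difference was 0.00 (95% interval -0.21 to 0.22, edgeR with Cyp4a2 as library size, adjusted p = 0.970; exact permutation p = 1). HP replicate 1 also had the highest mitochondrial share of the diabetic libraries (88.7%), the most Cyp2c23 counts in its group (35232, against 28564 and 27920) and the fewest Cyp4a2 counts (86525, against 91372 and 89448). Without it, the log2 difference from DM was -0.13 (SE 0.083, edgeR, adjusted p = 0.194).

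Against the medium dose the ratio fell 1.29 times in HP (log2 -0.37, SE 0.10, edgeR, adjusted p = 0.00499), with no overlap between libraries (14.3% of features) and 14.3% of features called lower relative to Cyp4a2. Against the low dose it fell 1.25 times (log2 -0.32, SE 0.10, adjusted p = 0.00909 by edgeR), a comparison added after the data were seen, in which HP replicate 1 overlapped LP and 14.3% of features were called lower. In fits of the compared groups alone neither passed, with an adjusted p of 0.0581 against MP and 0.0634 against LP in edgeR. Without HP replicate 1 the log2 differences were -0.50 and -0.46 (edgeR, adjusted p = 9.42e-05 and 0.000174). The difference from LP was also lost without HP replicate 2 (log2 -0.25, edgeR, adjusted p = 0.0504). The exact permutation p was 0.1 against MP and 0.2 against LP.

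Cyp2c23 itself fell in HP against both lower doses. It was 1.40 to 1.78 times lower in HP than in MP under all 4 scalings (13.8% of features called lower) and 1.30 to 2.04 times lower than in LP (20.7%), and both calls held without any 1 library. Cyp4a2 was lower in HP than in MP under 3 scalings, with log2 values of -0.38 under TMM, -0.44 with median of ratios and -0.32 unscaled (17.2, 27.6 and 17.2% of features called lower), and at -0.11 it did not pass against the nuclear genes (edgeR, adjusted p = 0.0914). It was lower in HP than in LP under TMM (log2 -0.67) and median of ratios (log2 -0.69), rules under which 41.4% of features were called lower each, and did not pass at -0.18 unscaled or -0.06 with nuclear scaling.

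Against DM, both genes fell in HP under TMM (27.6% of features called lower), Cyp2c23 by log2 -0.37 (SE 0.081, edgeR, adjusted p = 0.0042) and Cyp4a2 by log2 -0.34 (SE 0.13, adjusted p = 0.0476). Median of ratios kept the Cyp2c23 call (log2 -0.25, edgeR, adjusted p = 0.0356; 20.7% of features called lower) and not that of Cyp4a2 (log2 -0.23). With nuclear scaling both log2 values were 0.01 and unscaled both were 0.06, with an adjusted p of at least 0.756 by edgeR. The Cyp4a2 call under TMM was lost without HP replicate 1 (log2 -0.18, edgeR, adjusted p = 0.243), and also without HP replicate 2 or any 1 DM library.

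**Figure D3:**
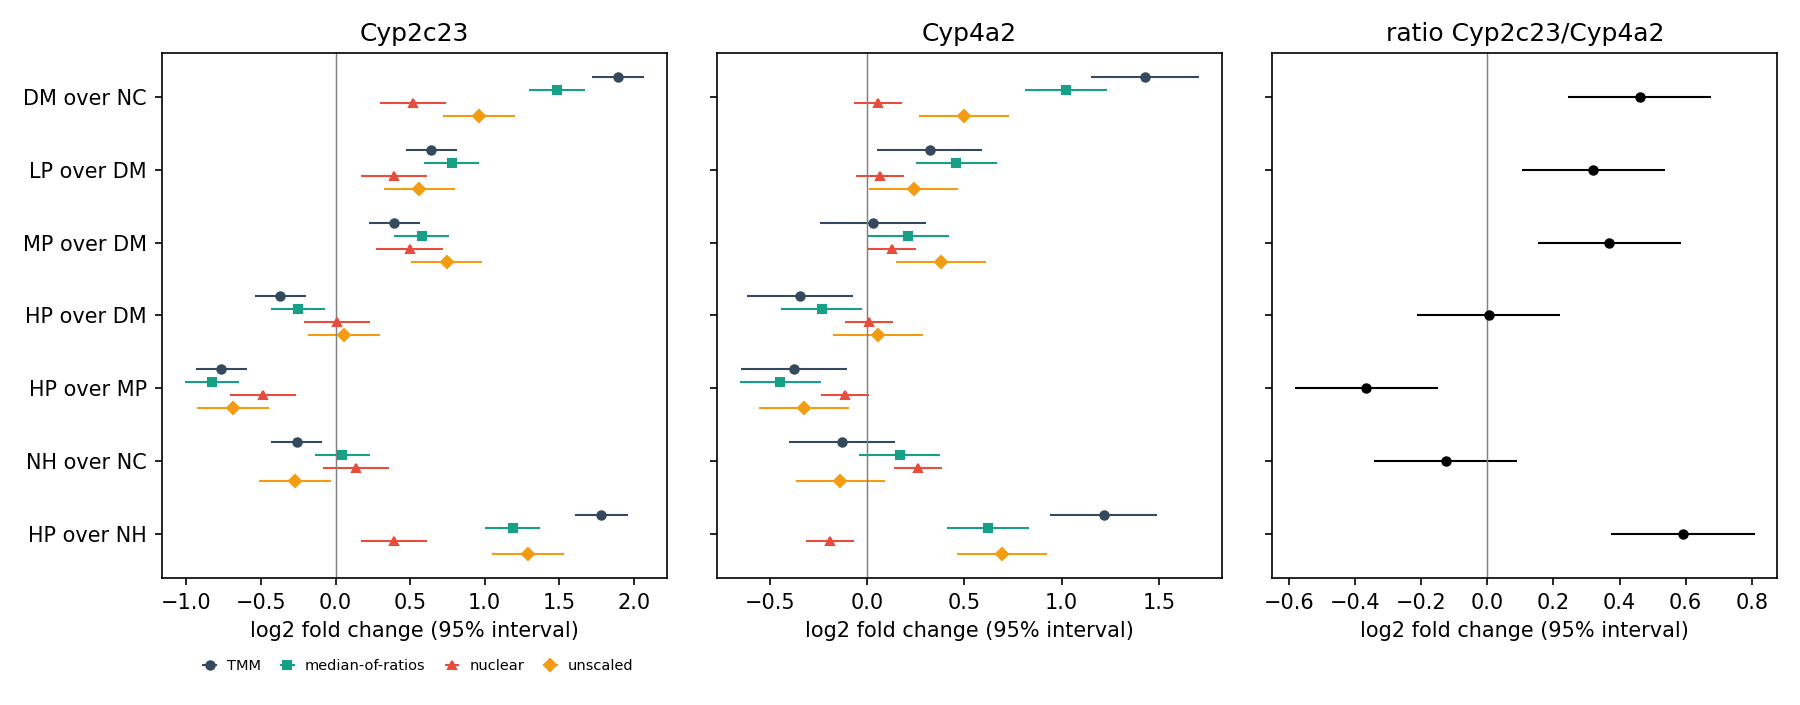
Log2 fold changes with 95% intervals (edgeR, 18 libraries in 1 fit) of Cyp2c23 and Cyp4a2 under 4 scalings, and of their ratio, which needs none; the horizontal scale differs between panels. Cyp2c23 is above 0 under every scaling in DM over NC, LP over DM and MP over DM, while Cyp4a2 lies at 0.06 in DM over NC when scaled on the nuclear genes.

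In healthy kidneys flour did not detectably move the ratio. It was 0.285, 0.253 and 0.236 in NH, against 0.274, 0.293 and 0.278 in NC, and the groups overlapped. The log2 difference was -0.13 (SE 0.10, 95% interval -0.34 to 0.09, edgeR, adjusted p = 0.273; exact permutation p = 0.3). Cyp2c23 was lower in NH under TMM (log2 -0.26, SE 0.081, edgeR, adjusted p = 0.0129; 31.0% of features called lower), and turned to 0.05 with median of ratios and 0.14 with nuclear scaling, where it did not pass. This call was lost without NH replicate 3 (log2 -0.23, edgeR, adjusted p = 0.0576). Cyp4a2 went the other way with nuclear scaling, at log2 0.26 (SE 0.057, edgeR, adjusted p = 0.00122; 55.2% of features called higher), and was at -0.13 under TMM.

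Set against flour-fed healthy kidneys, flour-fed diabetic kidneys had the higher ratio, at 0.353 to 0.461 in HP against 0.236 to 0.285 in NH. The log2 difference was 0.59 (SE 0.10, 1.51 times higher, edgeR, adjusted p = 4.25e-05), with no overlap (25.0% of features) and with 28.6% of features called higher relative to Cyp4a2. Cyp2c23 was higher in HP under all 4 scalings (1.31 to 3.44 times; 20.7% of features). Cyp4a2 was higher by log2 1.22 under TMM, 0.62 with median of ratios and 0.69 unscaled, and lower by log2 -0.19 with nuclear scaling, each past the threshold in edgeR, so its direction turns with the scaling. These calls were shared by 55.2, 41.4, 37.9 and 72.4% of features in that order.

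The effect of the high dose on the ratio was not shown to differ between diabetic and healthy kidneys. Subtracting the NH over NC difference from that of HP over DM left a log2 value of 0.13 (95% interval -0.18 to 0.44, edgeR, adjusted p = 0.512). For Cyp2c23 it was -0.11 under TMM (SE 0.11, edgeR, adjusted p = 0.665) and for Cyp4a2 -0.21 (SE 0.18, adjusted p = 0.59). With nuclear scaling the Cyp4a2 value of -0.25 passed (edgeR, adjusted p = 0.0272), a rule under which 13.8% of features were called lower, where unscaled counts gave 0.19. Unscaled counts also turned the Cyp2c23 value to 0.33, and a fit of the compared groups alone turned it to 0.34, which passed (edgeR, adjusted p = 0.0252).

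The genes most like each member were chosen by the smallest SD of log2(gene count / member count) over the 18 libraries, a likeness that needs no scaling. For Cyp2c23 the first 2 were Gpx3, the secreted glutathione peroxidase (SD 0.26), and Atp1b1, which encodes a sodium pump beta subunit (SD 0.35). For Cyp4a2 the first 3 were Atp5f1b, the beta subunit of ATP synthase (SD 0.16), Slc34a1, the phosphate transporter of the proximal tubule brush border (SD 0.19), and Eef1a1, a translation elongation factor (SD 0.24). Cyp2c23 and Cyp4a2 had an SD of 0.38 to each other, which made Cyp4a2 number 4 for Cyp2c23 and Cyp2c23 number 7 for Cyp4a2. By Pearson correlation of TMM-scaled log2 counts over the same libraries each was number 1 for the other. These are descriptions over libraries that share groups and depth, and the mean of a group sets much of each SD.

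The companions did not keep a fixed proportion to Cyp2c23. Gpx3 had 3.47 ± 0.0722 counts per Cyp2c23 count in DM, 5.28 ± 0.128 in LP, 5.22 ± 0.254 in MP, 3.51 ± 0.238 in HP, 4.63 ± 0.0701 in NH and 3.83 ± 0.0894 in NC (SD, n = 3 each). Gpx3 therefore exceeded Cyp2c23 by more in LP and MP than in DM or HP, with no overlap between libraries. Atp1b1 had 2.14 ± 0.0715 counts per Cyp2c23 count in DM, its highest mean, and 1.12 ± 0.214 in NH, its lowest. Slc34a1 stayed nearer to Cyp4a2, at 0.397 ± 0.0221 counts per Cyp4a2 count in DM, 0.440 ± 0.0261 in LP, 0.385 ± 0.0236 in MP, 0.381 ± 0.0292 in HP, 0.507 ± 0.101 in NH and 0.388 ± 0.0181 in NC.

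**Figure D4:**
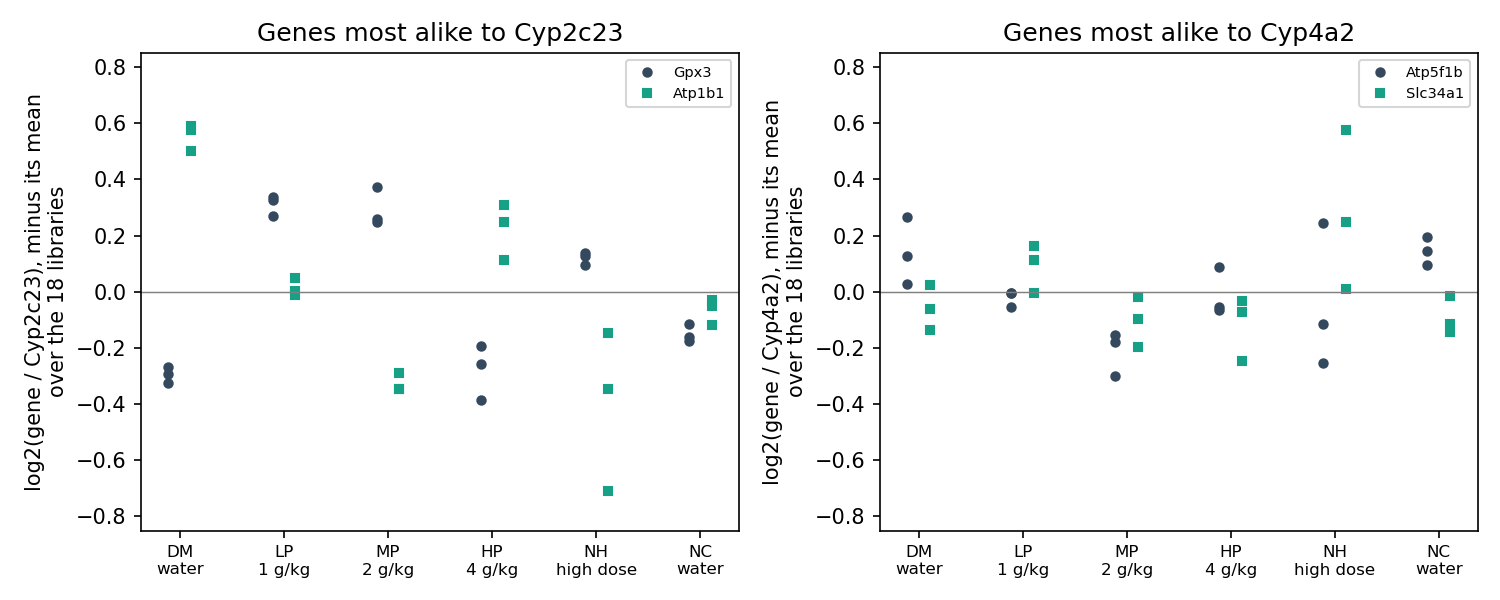
Log2 of the count of each of the 2 genes most like the member over the count of Cyp2c23 (left) or Cyp4a2 (right) in each library, centred on its mean over the 18 libraries; a gene in fixed proportion to the member would lie on 0 throughout. Gpx3 stands above 0 in LP, MP and NH and below it in DM, HP and NC, and the SD of the points is 0.16 for Atp5f1b and 0.19 for Slc34a1, against 0.26 for Gpx3 and 0.35 for Atp1b1.

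The sum of proximal tubule markers differed between groups as well, while the single markers did not all move together. Both P450 genes are transcribed in this part of the tubule. The summed counts of the 6 markers in the table were 290633 to 306051 in DM, 493415 to 556949 in LP, 493029 to 627184 in MP, 316400 to 325305 in HP, 185891 to 231331 in NH and 222078 to 257094 in NC. None of the 6 was at 0 in any library. Of the 6, Pck1 and Gpx3 were higher under all 4 scalings in DM over NC, LP over DM and MP over DM, and 4 did not pass all 4 scalings in any of these comparisons. Pck1 and Gpx3 were also lower under all 4 scalings in HP over MP, where Slc3a1 was higher, and Pck1, Gpx3 and Slc34a1 were lower in HP over LP, the comparisons in which Cyp2c23 fell. In HP over DM 0 of the 6 passed all 4 scalings.

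As a share of the marker sum, Cyp2c23 was 9.59 to 10.3% in DM, 7.77 to 8.76% in LP, 8.10 to 9.28% in MP, 8.75 to 10.8% in HP, 5.29 to 6.94% in NH and 6.20 to 6.66% in NC. Relative to this sum it was therefore higher in every DM than in every NC library, and lower in every LP and MP library than in every DM library. Cyp4a2 was 28.0 to 29.3% of the sum in DM, 18.9 to 19.5% in LP, 19.6 to 20.0% in MP, 26.6 to 28.9% in HP, 23.6 to 27.6% in NH and 25.2 to 26.8% in NC. Its share was lower in every LP and MP library than in any library of the other groups. How many of all features were separated in this way was not counted. Over all libraries together Gpx3 and Pck1 had the most counts of these markers, which need not hold in each group. Both were higher in LP and MP than in DM under all 4 scalings, and the other markers were not. By mean log2 count per Cyp4a2 count, Gpx3 was highest in MP and Pck1 in LP. On the same measure Miox and Hao2 were lowest in MP, Slc3a1 in LP and Slc34a1 in HP. The part of the marker changes in the results for Cyp2c23 and Cyp4a2 was not tested.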

How the data were processed

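RNA sequencing libraries were prepared from 1 µg of kidney RNA with the NEBNext Ultra RNA kit, per the labels' protocols. The deposited table was taken to hold raw counts, since all 522 of its values are whole and since, read as FPKM as the table is titled, they would assign 5.88 to 12.1 times the reads of a library to 29 features. The authors' own title names another unit, so this unit was inferred. CASAVA 1.7, Bowtie 0.12.2 and the mouse build mm8 are named without a role, per the submitters' processing notes; for the rat build, the counter and its strand setting, the answer is the same: not given in the sources used here. Gene lengths are the deposited ones.

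Counts were tested with edgeR 4.0.16 in R 4.3.3 (quasi-likelihood, 1 fit over 18 libraries, no filter or dispersion trend, two-sided, Benjamini-Hochberg over the 29 features, threshold 0.05) with TMM and 3 other scalings, DESeq2 1.42.0 and limma 3.58.1. The nuclear scale includes both P450 genes; a version without them was an alternative. The ratio was tested in edgeR with Cyp4a2 counts as library sizes, and by two-sided exact permutation (scipy 1.17.1; adjusted p at least 0.18 over 9 tests). The edgeR steps with TMM, nuclear and Cyp4a2 scaling were tested on simulated data for DM over NC, where nuclear scaling called more unchanged features than the other two did; the other scalings and tools were not simulated.

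Counts of a library summed to between 4440262 and 10306858 over the table, which is not its depth, and no count was under 10521, so the spread between libraries exceeds counting error. Replicates differed by far more than sampling noise (chi-square per degree of freedom 104 to 3662). Each library counted as 1 sample, although this spread may be technical and does not show that libraries are separate rats. Same-numbered libraries deviated together with r over 0.1 for all 3 numbers in DM with MP (0.684, 0.465, 0.733) and MP with HP (0.881, 0.807, 0.149), a hint from the data that the labels do not state, and in no other pair of the 15. NH with HP came near this rule (0.897, 0.527, 0.092), and whether same-numbered libraries share a batch was not tested. No batch is recorded. The genes, the lists and the tests were chosen with earlier results of these data known. The genes named beside the P450s are the 3 with the smallest SD of the log2 count ratio to each; 1 of those for Cyp2c23 is not reported here. RefSeq (GRCr8) supplied the Cyp4a family and the promoter sequences.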

Additional observations from a re-analysis of the deposited data

How the results depend on the processing

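Values are log2 differences. For Cyp2c23, the calls in DM over NC, LP over DM, MP over DM, HP over MP, HP over LP and HP over NH kept their direction and side of the threshold under every alternative run, as did the ratio's calls in edgeR except those given here and, with 1 library left out, in LP over DM without DM replicate 1 (adjusted p = 0.0525) or LP replicate 2 (0.0639) and in HP over LP without HP replicate 2 (0.0504); why the rest moved was not tested. Scaled on all 16 nuclear genes and then on 14 without the P450s, Cyp4a2 was 0.057 and 0.10 in DM over NC, -0.11 and -0.16 in HP over MP and -0.056 and -0.088 in HP over LP, none past the threshold. It turned to -0.19 and -0.18 in HP over NH, 0.26 and 0.29 in NH over NC, 0.058 and 0.070 in MP over LP and 0.012 and 0.013 in HP over DM, and passed at -0.25 and -0.28 in the difference of flour effects. On 14 genes it passed at 0.17 in MP over DM. Cyp2c23 turned to 0.14 and 0.17 in NH over NC, 0.11 and 0.12 in MP over LP and 0.011 and 0.013 in HP over DM. Unscaled, Cyp2c23 was 0.057 in HP over DM, 0.18 in MP over LP, -0.27 in NH over NC and 0.33 in the difference of flour effects, and Cyp4a2 was 0.38 in MP over DM, 0.056 in HP over DM, 0.14 in MP over LP, -0.18 in HP over LP and 0.19 in the difference. Median of ratios and DESeq2 gave Cyp4a2 0.46 in LP over DM (passing), -0.23 in HP over DM (not passing) and 0.17 in NH over NC, and Cyp2c23 0.046 in NH over NC. DESeq2 also passed Cyp4a2 at -0.25 in MP over LP and -0.40 in the difference of flour effects.

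With the compared groups alone, MP over LP was -0.012 for Cyp2c23 and -0.061 for Cyp4a2 (edgeR, adjusted p = 0.842 and 0.387). Cyp4a2 was 0.24 in LP over DM (passing), -0.26 in HP over DM (not passing) and 0.22 in the difference of flour effects, where Cyp2c23 passed at 0.34. The ratio was -0.37 in HP over MP and -0.32 in HP over LP, not passing. The exact permutation test, which cannot reach the threshold, gave ratio values of 0.46 in DM over NC, 0.32 in LP over DM, 0.37 in MP over DM, -0.38 in HP over MP, -0.33 in HP over LP and 0.58 in HP over NH; it and limma gave -0.0073 in HP over DM. Limma passed Cyp2c23 at -0.25 in MP over LP. By Pearson correlation, 1 of the 3 like genes was shared for Cyp2c23 and 1 for Cyp4a2, and each P450 gene ranked first for the other.

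The replicate block changed no call in MP over DM or HP over MP. In these comparisons same-numbered libraries deviated together, weakly for replicate 3 of MP and HP (0.149), a hint of pairing that the labels do not state. Elsewhere the correlations of same-numbered libraries were mixed. They were 0.897, 0.527 and 0.092 for NH with HP, and 0.812, 0.735 and -0.298 for NH with MP. For DM with LP they were -0.722, -0.145 and -0.605. Whether same-numbered libraries share a batch was not tested. In the other comparisons the block passed Cyp4a2 at 0.32 in LP over DM and -0.30 in MP over LP. It also passed Cyp2c23 at -0.25 in MP over LP, and put the ratio at -0.0012 in HP over DM.

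The spans given here for Cyp2c23 and Cyp4a2 are under TMM alone, and the other scalings gave other values. Leaving out 1 library at a time, Cyp2c23 spanned 1.50 to 1.90 in DM over NC, 0.62 to 0.68 in LP over DM, 0.34 to 0.59 in MP over DM, -0.43 to -0.30 in HP over DM, -0.30 to -0.17 in MP over LP, -0.85 to -0.71 in HP over MP, -1.07 to -0.96 in HP over LP, -0.37 to -0.23 in NH over NC, 1.55 to 1.83 in HP over NH and -0.17 to 0.070 in the difference of flour effects. In the same order Cyp4a2 spanned 1.01 to 1.45, 0.31 to 0.35, -0.062 to 0.23, -0.47 to -0.18, -0.38 to -0.18, -0.50 to -0.21, -0.79 to -0.50, -0.27 to -0.11, 0.90 to 1.38 and -0.34 to -0.02. The ratio spanned 0.44 to 0.49, 0.28 to 0.37, 0.34 to 0.42, -0.135 to 0.069, 0.00 to 0.10, -0.50 to -0.30, -0.46 to -0.25, -0.20 to -0.07, 0.45 to 0.67 and -0.0089 to 0.21. The Cyp4a2 call in HP over MP ended without MP replicate 2 or 3 or HP replicate 1. Depth is unknown, and the features of the table alone set every scale.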
